A study of Mus musculus with 75 samples.

Results

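Germ cells of the fetal mouse ovary at E13.5 (E for the embryonic day) were compared with those at E12.5, a time at which these cells begin to leave the mitotic cycle for meiosis. The comparison holds 4 of the 75 libraries of the series, chosen by their labels alone as the female germ cell libraries of these stages, 2 per stage. Female E13.5 germ cells were set against female E12.5 germ cells. In both groups the strain was ICR:C57BL/6=1:1, the genotype was Dppa3-EGFPTg/0 (a transgene with green fluorescent protein under the control of the germ cell gene Dppa3), no agent is named in the labels, and the cells were those positive for green fluorescent protein in flow cytometry. The series, according to its title, deals with bone morphogenetic protein (BMP) and retinoic acid in female germ cell fate, and it also holds cultured cells that are not used here. Germ cells of male embryos at E13.5 and E12.5, of the same strain, genotype and gate and with 2 libraries each, served to test whether a change differed between the sexes. Total RNA was amplified from 1 ng per library and read at the 3′ ends of transcripts, so that levels are given in RPM, the reads of a gene scaled to the same total in each library, and are not divided by length. The labels do not say whether the libraries of a group came from separate embryos or pools. The p-values measure the spread between libraries of a group, pooled over 22 embryo libraries in 11 groups, and this spread may be technical. The 22 also hold germ cells of earlier and later stages. Among these, the E14.5 and E15.5 female libraries came from embryos of the genotype Ddx4-RFPTg/0 and were sorted by red fluorescence.

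Primordial germ cells are the founders of eggs and sperm. In the ovary they enter meiotic prophase before birth: retinoic acid and BMP signals reach them from surrounding cells, the regulators STRA8 and MEIOC act as mitosis ends, meiosis-specific cohesins reshape the chromosome axis, the nuclease SPO11 cuts DNA, and the synaptonemal complex joins homologous chromosomes. Germ cells of the testis stop dividing without entering meiosis at this age, under NODAL signalling and the RNA-binding protein NANOS2. In both sexes the transcripts of pluripotency factors such as POU5F1 and NANOG are lost as differentiation goes on.

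Depth, estimated from the RPM worth of a single read, was 3468136 and 3118982 reads in the E13.5 libraries and 2876332 and 3542257 reads in the E12.5 libraries, and 3 reads were worth 0.847 to 1.04 RPM. Replicates correlated at 0.977 to 0.981 (Pearson's r across genes on the log2 scale; genes are not independent replicates). The summed level of 8 germ cell markers was 5391 and 5711 RPM at E13.5, against 5915 and 6188 RPM at E12.5. Dppa3 was the highest of the 8 in each library, at 2128 to 2887 RPM. Since the cells were sorted on a Dppa3 reporter, a high sum was set in part by the gate. Of 12567 genes tested with limma on log2(RPM + 1), 594 were higher at E13.5 (4.73%) and 143 were lower (1.14%), together 737 or 5.86%. The call required a p below 0.05 after Benjamini-Hochberg adjustment and a log2 change of 1 or more either way, and log2 changes on this scale understate those of low genes. The number called depended on single libraries: it was 419 without E13.5 replicate 1, 358 without E13.5 replicate 2 and 319 without E12.5 replicate 2. The spread was estimated over 22 embryo libraries in 11 groups; from the 4 libraries alone, with 2 residual degrees of freedom, limma called 0 genes, with 2852 at an unadjusted p below 0.05. All genes tested had a median log2 change of 0.09, and the medians of the libraries differed by 0.14 between the groups. After median centring the split was 417 higher (62.3%) and 252 lower, and after quantile normalization it was 300 higher (54.9%) and 246 lower, so that the excess of increases (80.6% of calls) depended in part on the scaling. In sorted bulk samples a smaller share of cells with a transcript and less of it per cell cannot be told apart.

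**Figure D1:**
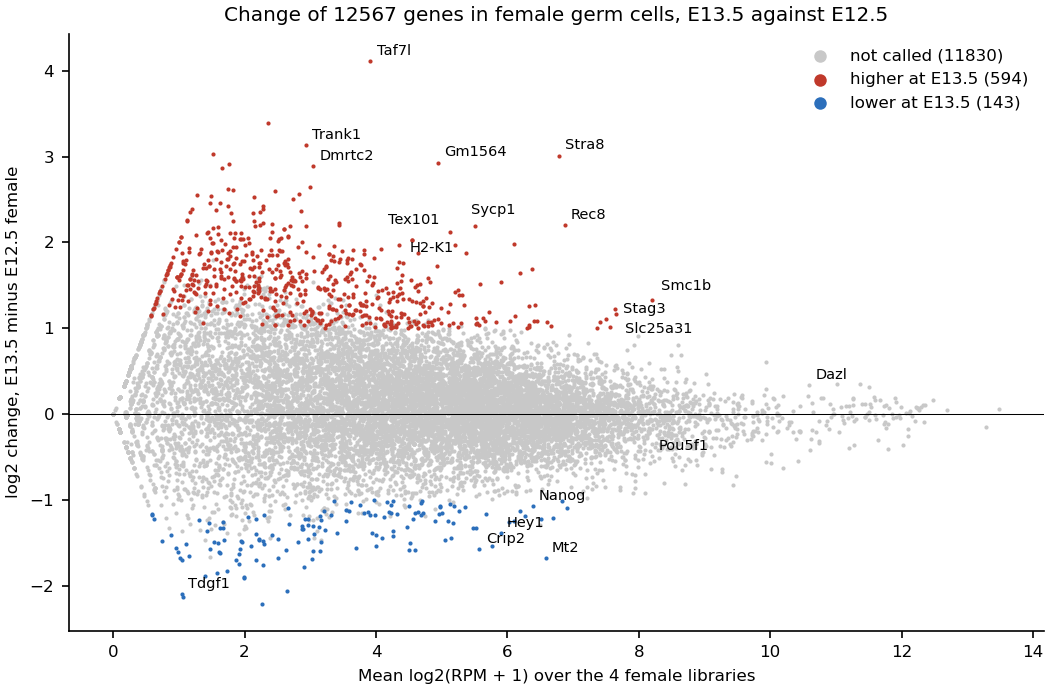
log2 change of each of 12567 genes (E13.5 minus E12.5 female germ cells, y axis) against its mean log2(RPM + 1) over the 4 libraries (x axis). Each point is a gene, red where called higher (594), blue where called lower (143) and grey otherwise. Taf7l and Stra8 lie among the red points, at log2 changes of 4.12 and 3.01, while Dazl and Pou5f1 lie among the grey points.

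Meiotic genes rose together. The lists of such genes were written with earlier results of these data known, which bears on the choice of members. Their shares beside those of all genes are therefore descriptions, and no set test was run. In 4 lists of meiotic genes (entry regulators and cohesins; synaptonemal complex and HORMA proteins; double-strand breaks and recombination; telomere attachment), 48 genes were tested, 25 rose (52.1%, against 4.73% of all genes tested) and 0 fell. The median log2 change of the 48 was 1.22, beside 0.09 over all genes, and 44 of them lay above 0, beside 7231 of 12567. With no filter on low values 19 of the 48 rose (39.6%), beside 1.91% of all genes. Prdm9, Rnf212 and Kash5, counted among the 25, were under 5 RPM in all 4 female libraries. They passed the filter through other embryo libraries, and averaged 33.9 RPM or more in the E14.5 female libraries. In male germ cells over the same day, 4 of the 48 rose and the median was 0.13, beside 2.44% of all genes higher and a median of 0.04. Without E12.5 replicate 2 the female count of 25 was 14 (29.2%), beside 2.04% of all genes, and without any other single library it was 17 to 21.

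The entry regulators and cohesins rose in 7 of 10 tested members, and in 6 or 7 when any 1 of the 4 libraries was left out. Stra8 (Entrez 20899, chr6:34920163-34939344 in GRCm38.p6), the retinoic acid target needed for meiotic entry, had 322 and 303 RPM in the E13.5 libraries, against 41.4 and 34.7 RPM in the E12.5 libraries. All 4 libraries were well above the level of 3 reads, and the groups did not overlap (limma, log2 change of 3.01 ± 0.44 (SE), adjusted p = 0.000125). Meioc (listed as Gm1564; Entrez 268491, chr11:102665351-102682240), whose product helps germ cells leave mitosis, had 83.9 and 84.0 RPM in the E13.5 libraries, against 12.52 and 8.19 RPM in the E12.5 libraries. Its E13.5 libraries were nearly equal and both far above E12.5 (limma, log2 change of 2.93 ± 0.34 (SE), adjusted p = 1.25e-05). Taf7l (Entrez 74469, chrX:134460116-134476505), kept with this list, is an X-linked germ cell paralog of a subunit of the general transcription factor TFIID. It had 61.4 and 62.2 RPM in the E13.5 libraries, against 2.43 and 2.82 RPM in the E12.5 libraries. This was the largest increase (limma, log2 change of 4.12 ± 0.47 (SE), adjusted p = 1.08e-05) in a restricted set. The set held called genes that averaged 20 RPM or more at E13.5, did not overlap between the stages and had no predicted name. The E12.5 libraries of Taf7l were only a few reads above the level of 3 reads.

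The meiotic cohesins form rings along the chromosome axis in place of their mitotic relatives. Rec8 (Entrez 56739, chr14:55618002-55625395), which holds sister chromatids together, had 246 and 254 RPM in the E13.5 libraries, against 50.4 and 57.0 RPM in the E12.5 libraries. Both E13.5 libraries were about alike and stood clear of both E12.5 libraries (limma, log2 change of 2.20 ± 0.33 (SE), adjusted p = 0.000177). Smc1b (Entrez 140557, chr15:85064689-85131957), the meiotic core subunit, had 467 and 465 RPM in the E13.5 libraries, against 193 and 178 RPM in the E12.5 libraries. Stag3, the meiotic STAG subunit, had 284 and 321 RPM in the E13.5 libraries, against 136 and 122 RPM in the E12.5 libraries. Neither gene overlapped between the stages, and both already stood above 100 RPM at E12.5 (limma, log2 changes of 1.33 and 1.22, adjusted p = 7.98e-06 and 1.02e-05). Rnf212, a crossover factor kept with this list, had 4.04 and 0.962 RPM in the E13.5 libraries, against 0.348 and 0 RPM in the E12.5 libraries, and its call was lost without E12.5 replicate 2 or without E13.5 replicate 1. The members not called were Rad21l, a further meiotic cohesin, at a log2 change of 0.36, Ythdc2, the RNA-binding partner of MEIOC, at 0.76, and Zglp1, a transcriptional regulator of oogenesis, at 0.37. Zglp1 had 65.5 and 71.8 RPM in the E13.5 libraries, against 59.8 and 46.9 RPM in the E12.5 libraries, so the groups did not overlap and the difference did not pass the test.

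The synaptonemal complex is a protein ladder with lateral elements (SYCP2, SYCP3) along each chromosome and transverse filaments (SYCP1) with central proteins (SYCE1, TEX12, SIX6OS1) between them. Of 11 tested genes of the complex and of its HORMA-domain partners, 7 rose, and 6 or 7 when any 1 library was left out. Sycp1 (Entrez 20957, chr3:102818499-102936100) had 85.3 and 108 RPM in the E13.5 libraries, against 20.51 and 20.04 RPM in the E12.5 libraries, with the groups well apart (limma, log2 change of 2.19 ± 0.27 (SE), adjusted p = 2.12e-05). Sycp2 had 26.5 and 26.3 RPM in the E13.5 libraries, against 6.61 and 5.93 RPM in the E12.5 libraries, also apart (limma, log2 change of 1.92 ± 0.21 (SE), adjusted p = 7.98e-06). Sycp3 (Entrez 20962, chr10:88459587-88473236) had 134 and 164 RPM in the E13.5 libraries, against 42.8 and 48.0 RPM in the E12.5 libraries, again with no overlap (limma, log2 change of 1.69 ± 0.25 (SE), adjusted p = 0.000165). The central element genes moved with them. Six6os1 (listed as 4930447C04Rik) had 119 and 137 RPM at E13.5, against 42.1 and 38.7 RPM at E12.5, a log2 change of 1.64. Tex12 had 98.9 and 104 RPM at E13.5, against 37.9 and 31.1 RPM at E12.5, and Syce1 had 131 and 133 RPM at E13.5, against 57.7 and 50.5 RPM at E12.5, with log2 changes of 1.54 and 1.27. Hormad1, which marks chromosome axes that are not yet joined and is the seventh called gene, had 199.8 and 269 RPM at E13.5, against 120.5 and 110.4 RPM at E12.5, and this call was lost without E12.5 replicate 2, without E13.5 replicate 2 and after median centring. Syce2 (0.50), Syce3 (0.78), Hormad2 (0.83) and Trip13 (-0.17), the last an ATPase that removes HORMA proteins from the axis, were not called.

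Promoters of 4 of these genes are shown because so many of the meiotic genes moved together; the 4 were chosen among those that hold a searched motif. They are the RefSeq windows of 300 bases, from 250 bases before to 50 after the start, on GRCm38.p6 and on the strand of the gene. Capitals mark 3 searched motifs on either strand: the E-box CACGTG, the E2F motif GGCGGGA and the STRA8-linked motif CNCCTCAG. No motif overlapped another in these 4 windows. Sycp3 lies at chr10:88459337-88459636 on the plus strand, and Sycp1 at chr3:102936051-102936350, Tex12 at chr9:50561219-50561518 and Taf7l at chrX:134476441-134476740 on the minus strand.
Sycp3: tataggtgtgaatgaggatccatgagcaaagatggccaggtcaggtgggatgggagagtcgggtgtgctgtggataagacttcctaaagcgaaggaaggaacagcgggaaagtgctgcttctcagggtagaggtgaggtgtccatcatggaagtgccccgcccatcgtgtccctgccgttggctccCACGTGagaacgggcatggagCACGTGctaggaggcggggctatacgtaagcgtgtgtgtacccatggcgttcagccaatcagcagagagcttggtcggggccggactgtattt
Sycp1: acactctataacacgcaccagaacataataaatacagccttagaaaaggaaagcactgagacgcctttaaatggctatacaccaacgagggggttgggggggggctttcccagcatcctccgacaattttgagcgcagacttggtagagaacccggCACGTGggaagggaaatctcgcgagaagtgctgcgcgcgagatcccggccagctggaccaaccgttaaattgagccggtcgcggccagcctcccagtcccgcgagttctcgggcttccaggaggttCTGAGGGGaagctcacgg
Tex12: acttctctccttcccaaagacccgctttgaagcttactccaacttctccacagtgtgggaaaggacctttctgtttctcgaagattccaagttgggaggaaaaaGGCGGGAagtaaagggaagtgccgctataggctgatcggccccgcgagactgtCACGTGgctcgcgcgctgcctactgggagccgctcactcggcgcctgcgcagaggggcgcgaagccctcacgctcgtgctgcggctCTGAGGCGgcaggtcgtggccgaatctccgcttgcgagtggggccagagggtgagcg
Taf7l: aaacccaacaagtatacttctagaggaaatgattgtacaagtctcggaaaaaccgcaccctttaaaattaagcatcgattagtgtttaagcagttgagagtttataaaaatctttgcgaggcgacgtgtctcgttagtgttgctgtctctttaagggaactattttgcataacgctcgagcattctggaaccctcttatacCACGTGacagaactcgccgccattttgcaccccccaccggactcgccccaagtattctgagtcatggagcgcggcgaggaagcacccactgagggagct
Sycp3 held the E-box at -64 and -43, Sycp1 an E-box at -94 and the STRA8-linked motif at 33, Tex12 an E-box at -93, the E2F motif at -146 and the STRA8-linked motif at -7, and Taf7l an E-box at -49 (first base of the match on the printed strand, counted from the start). Other called meiotic genes, Stra8, Rec8, Smc1b, Meioc, Sycp2, Syce1, Msh4, Dmc1 and Kash5, had none of the 3 motifs in their windows. Of the 25 called meiotic genes, 21 were in the promoter table, as were 9773 of the genes tested and 474 of those called higher. All shares given here are over genes in that table. An E-box was in 8 of the 21 (38.1%), against 12.2% of genes tested, 12.2% of genes called higher and 8.09% of the 27025 genes in the table. The E2F motif was in 33.3% of the 21, 24.8% of genes tested, 26.4% of genes called higher and 12.7% of the table. The STRA8-linked motif was in 28.6% of the 21, 11.3% of genes tested, 15.0% of genes called higher and 9.12% of the table. Of the 40 meiotic genes tested and present in the table, called or not, the E-box was in 27.5%, the E2F motif in 32.5% and the STRA8-linked motif in 27.5%. These are matches of letters in a window and not binding sites.

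Double-strand break and recombination genes rose in 8 of 20 tested members, fewer of them strongly. Msh5, a crossover-promoting MutS homolog, had 7.21 and 6.09 RPM in the E13.5 libraries, against 1.04 and 1.69 RPM in the E12.5 libraries, with no overlap (limma, log2 change of 1.70 ± 0.33 (SE), adjusted p = 0.00165). Hfm1, a helicase of crossover formation, had 39.2 and 41.4 RPM in the E13.5 libraries, against 15.99 and 11.6 RPM in the E12.5 libraries, likewise apart (limma, log2 change of 1.498 ± 0.26 (SE), adjusted p = 0.000878). These were the only 2 of the 8 that stayed called when any 1 of the 4 libraries was left out. Spo11, the nuclease that makes the breaks, had 30.9 and 20.8 RPM at E13.5, against 9.73 and 6.78 RPM at E12.5, a log2 change of 1.53 that was lost without E12.5 replicate 2 or E13.5 replicate 1. Dmc1, the meiotic recombinase, had 36.9 and 40.7 RPM at E13.5, against 13.9 and 16.7 RPM at E12.5, with no overlap, but the call was lost without any 1 of the 4 libraries. Prdm9, the histone methyltransferase that places breaks, had 1.73 and 2.24 RPM at E13.5, against 0.0557 and 0.302 RPM at E12.5, under 3 RPM in all 4 libraries, and was lost in the same way. Msh4 rose by 1.47, Tex11 by 1.15 and Tex15 by 1.08 on the log2 scale, all 3 being factors of recombination or synapsis. The count of 8 was 5 without E12.5 replicate 1, 2 without E12.5 replicate 2, 5 without E13.5 replicate 1 and 4 without E13.5 replicate 2, and 5 with no filter on low values or after quantile normalization. Brca2, which loads recombinases, had 92.3 and 85.0 RPM at E13.5, against 47.3 and 55.0 RPM at E12.5 and did not pass the fold threshold. Mei1, a gene needed for break formation, had 0.865 and 1.92 RPM in the E13.5 libraries and was listed at 0 in both E12.5 libraries, and was not called.

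Genes that tie chromosome ends to the nuclear envelope rose in 3 of 7 tested members. Majin (listed as 1700123I01Rik) had 6.63 and 7.05 RPM at E13.5, against 1.39 and 0 RPM at E12.5. Terb1 (listed as Ccdc79), its partner, had 6.06 and 5.13 RPM at E13.5, against 1.04 and 0.847 RPM at E12.5. Kash5 (listed as Ccdc155), the dynein adaptor on the outer side, had 1.44 and 3.53 RPM at E13.5 and was listed at 0 in both E12.5 libraries. For all 3 the E13.5 libraries lay above both E12.5 libraries, which were at or near the level of 3 reads. The count of 3 was 2 without E12.5 replicate 1 or E13.5 replicate 1, and 0 without E12.5 replicate 2 or E13.5 replicate 2; it was 1 with no filter on low values and 1 with a pseudocount of 0.1. Spdya, the activator of CDK2 at telomeres, had a log2 change of 1.43 with limma's adjusted p = 0.0518 and was not called.

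**Figure D2:**
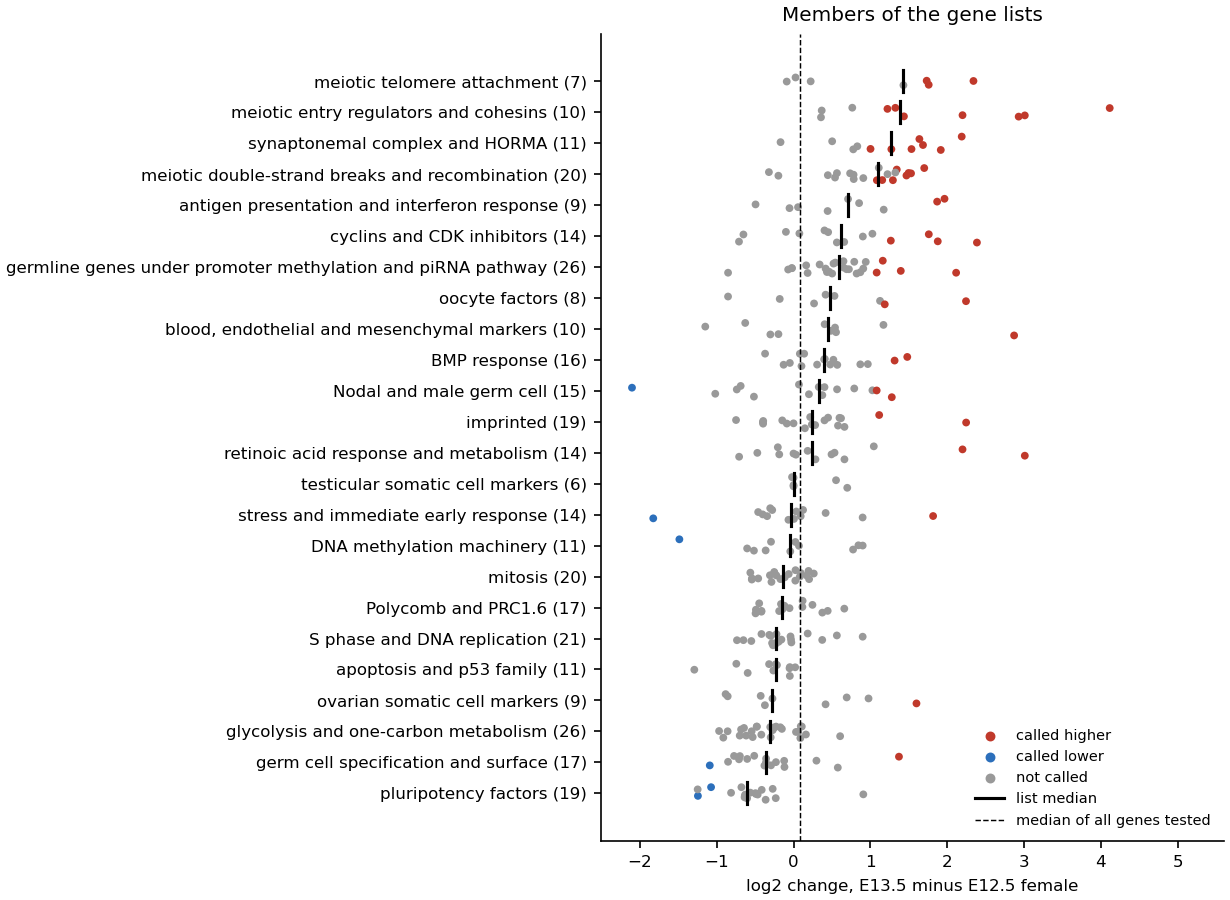
log2 change (E13.5 minus E12.5 female, x axis) of the tested members of each gene list with at least 5 tested members (rows, number tested in brackets). Lists chosen after values were seen are not drawn. Each point is a gene, red where called higher, blue where called lower and grey otherwise; the black bar is the list median and the dashed line is the median of all genes tested, 0.09. The 4 meiotic lists have medians of 1.10 to 1.43, and pluripotency factors have a median of -0.60.

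Germline genes outside the meiotic lists were also examined. The list of germline genes under promoter methylation and of the piRNA pathway, which silences transposons, had 26 tested members with a median log2 change of 0.60, and 4 rose, beside 4.73% of all genes tested; the 4 became 2 with no filter, with a pseudocount of 0.1 or after median centring. Tex101, a germ cell surface glycoprotein, had 74.1 and 69.9 RPM in the E13.5 libraries, against 15.3 and 16.4 RPM in the E12.5 libraries. Slc25a31, a mitochondrial ADP/ATP carrier of germ cells, had 300.4 and 302 RPM in the E13.5 libraries, against 130.4 and 138 RPM in the E12.5 libraries. Both stood apart from E12.5 and stayed called whichever library was left out (limma, log2 changes of 2.12 and 1.16, adjusted p = 2.65e-05 and 1.11e-06). Tdrd1, a scaffold of the piRNA machinery, had 37.8 and 27.3 RPM at E13.5, against 12.2 and 11.01 RPM at E12.5, and Piwil4, a nuclear PIWI protein, had 9.52 and 9.30 RPM at E13.5, against 4.17 and 3.67 RPM at E12.5. Their groups did not overlap, but both calls were lost without any 1 of the 4 libraries; without E13.5 replicate 2 the list counted 2 higher and 1 lower. Dazl, the RNA-binding protein that licenses germ cells for gametogenesis, had 1659 and 1819.8 RPM at E13.5, against 1386 and 1359 RPM at E12.5, and Ddx4, a helicase of germ granules, had 636 and 579 RPM at E13.5, against 438 and 442 RPM at E12.5. Both were higher in each E13.5 library, at log2 changes of 0.34 and 0.46, below the fold threshold.

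**Figure D3:**
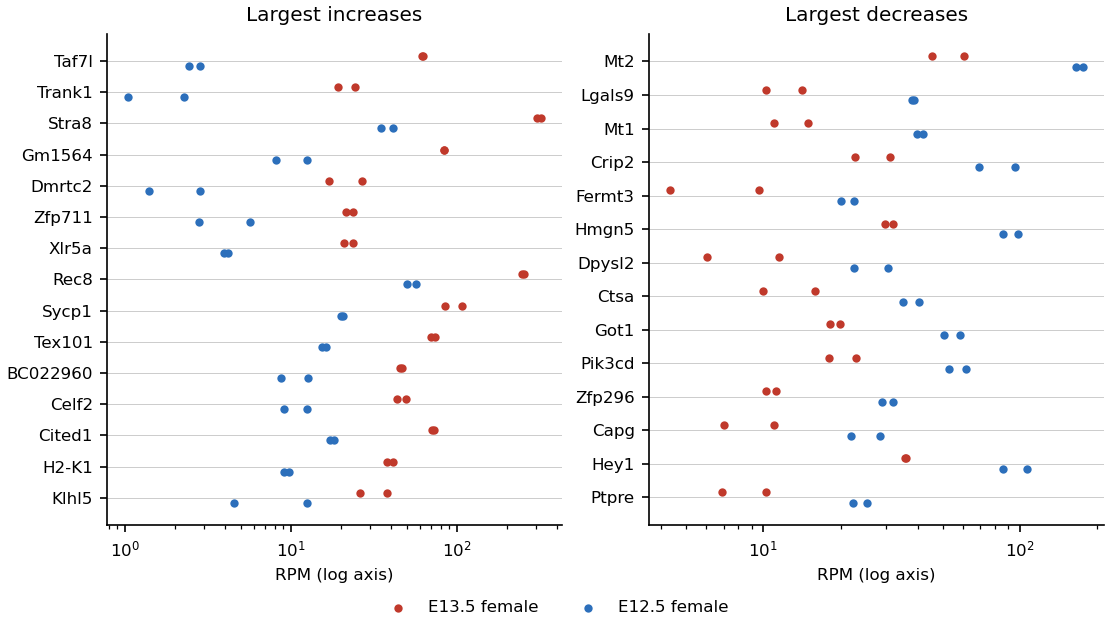
RPM in each library (log axis) of the 15 genes with the largest increases (left) and 14 of the 15 with the largest decreases (right). They were ranked among called genes with 20 RPM or more at the higher stage and no predicted name. Each point is a library, red for E13.5 and blue for E12.5 female germ cells; the stages do not overlap for any gene shown, which the choice of genes required. Taf7l spans 2.43 to 62.2 RPM on the left, and Mt2 spans 45.5 to 176 RPM on the right.

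Among the other genes with the largest increases were regulators and surface proteins with no place in the meiotic lists. Dmrtc2 (Entrez 71241, chr7:24869817-24877655), a DM-domain factor of meiotic germ cells, had 17.0 and 26.9 RPM in the E13.5 libraries, against 1.39 and 2.82 RPM in the E12.5 libraries. Its groups were well apart (limma, log2 change of 2.89 ± 0.37 (SE), adjusted p = 2.95e-05). Trank1, which encodes a large protein with ankyrin and tetratricopeptide repeats, had 19.3 and 24.4 RPM in the E13.5 libraries, against 1.04 and 2.26 RPM in the E12.5 libraries, and its E12.5 libraries were close to the level of 3 reads. Cited1, a transcriptional co-activator, had 73.2 and 71.2 RPM in the E13.5 libraries, against 18.1 and 17.2 RPM in the E12.5 libraries. Celf2, a splicing regulator, had 43.5 and 49.7 RPM in the E13.5 libraries, against 12.52 and 9.03 RPM in the E12.5 libraries. Both were higher in each E13.5 library and stayed called whichever library was left out (limma, log2 changes of 1.97 and 2.03, adjusted p = 0.000555 and 0.000103). Zfp711, an X-linked zinc finger gene, had 23.6 and 21.5 RPM at E13.5, against 2.78 and 5.65 RPM at E12.5, and BC022960, a gene named here only by its identifier, had 45.6 and 46.8 RPM at E13.5, against 8.69 and 12.7 RPM at E12.5. Xlr5a, of a multicopy X-linked family related to SYCP3, had 20.9 and 23.8 RPM at E13.5, against 4.17 and 3.95 RPM at E12.5; reads of its near-identical copies could have been divided among them. Klhl5, a kelch-repeat adaptor, had 26.2 and 38.2 RPM at E13.5, against 12.52 and 4.52 RPM at E12.5, and its call was lost without E12.5 replicate 2 or E13.5 replicate 2.

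Genes for class I antigen presentation were among the risers. H2-K1, a class I heavy chain, had 37.8 and 41.4 RPM in the E13.5 libraries, against 9.73 and 9.03 RPM in the E12.5 libraries. B2m, the light chain that all class I heavy chains share, had 14.4 and 21.5 RPM in the E13.5 libraries, against 3.48 and 4.80 RPM in the E12.5 libraries. Both were higher in each E13.5 library (limma, log2 changes of 1.97 and 1.87, adjusted p = 0.00346 and 0.00311); the call of B2m was lost without E13.5 replicate 2, and reads of H2-K1 may be shared with other class I genes. They were the only 2 of 9 tested genes of antigen presentation and interferon response to be called, beside 5.86% of all genes tested. H2-D1 was at a log2 change of 0.85 and Tap1 at 0.44, neither of them called.

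Pluripotency factors lay on the other side. Of 19 tested members 18 had a log2 change below 0, with a median of -0.60 beside 0.09 over all genes. Only 2 were called lower, beside 1.14% of all genes tested. Nanog (Entrez 71950, chr6:122707489-122714633), a core pluripotency factor, had 50.2 and 63.8 RPM in the E13.5 libraries, against 122 and 118 RPM in the E12.5 libraries. Both E13.5 libraries lay below both E12.5 libraries (limma, log2 change of -1.07 ± 0.25 (SE), adjusted p = 0.0071), and the call was lost without E13.5 replicate 1. Klf2, a factor of the naive state, had 21.05 and 21.5 RPM in the E13.5 libraries, against 40.0 and 66.9 RPM in the E12.5 libraries and was lost without E12.5 replicate 2 or either E13.5 library. Pou5f1 had 256 and 239 RPM at E13.5, against 361 and 338 RPM at E12.5, Utf1, a chromatin protein of pluripotent cells, had 298 and 332 RPM at E13.5, against 581 and 528 RPM at E12.5, and Sox2 had 194 and 189 RPM at E13.5, against 234 and 216 RPM at E12.5. These 3 were lower in each E13.5 library without reaching the fold threshold, at log2 changes of -0.50, -0.81 and -0.23. The exception in sign was Klf4, at 0.91 and not called. The count of 2 was 1 without E12.5 replicate 2 or E13.5 replicate 2 and with no filter, 0 without E13.5 replicate 1, and 3 after median centring or quantile normalization.

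Of 17 tested genes of germ cell specification and surface, 1 rose and 1 fell, beside 5.86% of all genes called either way, and none was called with no filter or with a pseudocount of 0.1. Sox15, a SOX factor of early germ cells, had 28.8 and 25.6 RPM at E13.5, against 67.8 and 51.4 RPM at E12.5, and Fut4, which makes the SSEA1 surface sugar, had 28.3 and 34.0 RPM at E13.5, against 7.65 and 16.7 RPM at E12.5. The groups did not overlap for either; the call of Sox15 was lost without any 1 library, and that of Fut4 without E12.5 replicate 1 or either E13.5 library. Kit, the receptor for stem cell factor, had 112 and 218 RPM at E13.5, against 248 and 322 RPM at E12.5, with the E13.5 libraries unlike each other and a limma adjusted p = 0.0522. Dppa3, the gene behind the sorting reporter, had 2128 and 2249 RPM at E13.5, against 2729 and 2887 RPM at E12.5, lower in each E13.5 library at a log2 change of -0.36, and was not called.

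Decreases were ranked among called genes that averaged 20 RPM or more at E12.5, did not overlap between the stages and had no predicted name. The largest was in Mt2 (Entrez 17750, chr8:94172618-94173567), a metal-binding metallothionein. Mt2 had 60.6 and 45.5 RPM in the E13.5 libraries, against 176 and 165 RPM in the E12.5 libraries. The groups were far apart (limma, log2 change of -1.68 ± 0.24 (SE), adjusted p = 0.000125). Its relative Mt1 had 14.99 and 11.01 RPM at E13.5, against 39.6 and 41.8 RPM at E12.5, a call lost without E12.5 replicate 2 or E13.5 replicate 2; the 2 genes are similar in sequence, so that some reads could have been divided between them. Crip2 (Entrez 68337, chr12:113140236-113145506), a LIM-domain protein, had 31.1 and 22.8 RPM in the E13.5 libraries, against 95.3 and 69.4 RPM in the E12.5 libraries, with no overlap (limma, log2 change of -1.58 ± 0.16 (SE), adjusted p = 2.81e-06). Hey1, a transcriptional repressor downstream of Notch, had 36.0 and 35.6 RPM in the E13.5 libraries, against 106 and 86.1 RPM in the E12.5 libraries. Pik3cd, a catalytic subunit of PI3-kinase, had 23.1 and 18.0 RPM in the E13.5 libraries, against 52.8 and 61.8 RPM in the E12.5 libraries. Both were lower in each E13.5 library (limma, log2 changes of -1.39 and -1.45, adjusted p = 0.000931 and 0.000208).

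Surface, lysosomal and transcription factor genes followed among the decreases. Lgals9, a galectin, had 14.1 and 10.3 RPM at E13.5, against 37.9 and 38.7 RPM at E12.5, and Ctsa, a lysosomal carboxypeptidase, had 15.9 and 9.94 RPM at E13.5, against 35.1 and 40.4 RPM at E12.5. Zfp296, a zinc finger gene known from pluripotent cells, had 11.2 and 10.3 RPM at E13.5, against 32.0 and 29.1 RPM at E12.5. None of these 3 overlapped between the stages, and all 3 stayed called whichever library was left out, as did Mt2, Crip2, Hey1 and Pik3cd. Besides Mt1, 6 more of the 15 were lost without at least 1 library: Fermt3, an integrin activator (log2 change -1.57), Hmgn5, a nucleosome-binding protein (-1.54), Dpysl2, a microtubule-binding protein (-1.53), Got1, an aspartate aminotransferase (-1.47), Capg, an actin-capping protein (-1.41), and Ptpre, a tyrosine phosphatase (-1.39). The libraries behind these losses were E12.5 replicate 2 and E13.5 replicate 1 for Fermt3, Hmgn5, Dpysl2, Got1 and Ptpre, E12.5 replicate 1 for Fermt3, Hmgn5, Got1 and Ptpre, and E13.5 replicate 2 for Hmgn5, Got1 and Capg, with E12.5 replicate 2 also for Capg. Of the 88 called genes in the lists and among the named genes, 41 stayed called without any 1 of the 4 libraries.

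For the cell cycle machinery, none of 21 genes of S phase and DNA replication and none of 20 genes of mitosis was called, beside 5.86% of all genes tested, with medians of -0.22 and -0.14. Mcm10, a replication initiation factor, was lowest of the S-phase genes at -0.74, and Uhrf1, the cofactor of maintenance methylation, highest at 0.90. Among 14 cyclins and inhibitors of cyclin-dependent kinases, 4 rose, beside 4.73% of all genes. Of these 4, Ccnb3 was under 5 RPM in all 4 female libraries. It passed the filter through other embryo libraries, and averaged 55.2 RPM in the E14.5 female libraries. Ccnd1, a G1 cyclin, had 79.3 and 77.6 RPM in the E13.5 libraries, against 19.8 and 21.5 RPM in the E12.5 libraries. Cdkn2d, an inhibitor of CDK4 and CDK6, had 62.6 and 60.9 RPM in the E13.5 libraries, against 25.03 and 25.1 RPM in the E12.5 libraries. Both were well above E12.5 in each library (limma, log2 changes of 1.88 and 1.27, adjusted p = 0.00587 and 0.000686). Inca1, an inhibitor of CDK2 with cyclin A1, had 8.07 and 12.504 RPM at E13.5, against 3.48 and 0 RPM at E12.5, and Ccnb3, a cyclin of meiotic cells, had 1.73 and 3.21 RPM at E13.5, against 0 and 0 RPM at E12.5. Without E13.5 replicate 2 the count of 4 was 2, with Inca1 and Ccnb3 lost.

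The signalling pathways named in the title of the series had 2 lists, and 5.86% of all genes were called. Among 14 tested genes of retinoic acid response and metabolism, the 2 called were Stra8 and Rec8, which rose. Crabp1, a cytoplasmic retinoic acid carrier, was at a log2 change of 0.53, and Stra6, the retinol transporter, had 0.865 and 1.28 RPM at E13.5 and was listed at 0 in both E12.5 libraries. The receptor gene Rarb reached at most 4.49 RPM and the degrading enzyme gene Cyp26a1 at most 0.641 RPM in the 4 libraries, and neither was tested. Among 16 BMP response genes, Bmpr2, a type II receptor, had 6.63 and 8.98 RPM at E13.5, against 3.13 and 1.98 RPM at E12.5, and Smad9, a signal-transducing SMAD, had 7.79 and 4.17 RPM at E13.5, against 1.74 and 1.13 RPM at E12.5. These 2 rose at low levels; neither was called without E12.5 replicate 2, 1 of the 2 was called without either E13.5 library, 1 with no filter or a pseudocount of 0.1, and neither after quantile normalization. The classical targets Id1, Id2 and Id3 were at 0.41, 0.48 and 0.08 and not called. Gata2, a zinc finger target of BMP in this setting, had 233 and 253 RPM at E13.5, against 165 and 161 RPM at E12.5, and Msx2, a homeobox target, had 42.4 and 85.0 RPM at E13.5, against 59.5 and 64.9 RPM at E12.5. Gata2 was higher in each E13.5 library and not called, and the 2 stages overlapped for Msx2.

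Of 8 tested oocyte factors 2 were called and of 15 genes of the male pathway 3, beside 5.86% of all genes. Figla, a regulator of the follicle programme, had 8.94 and 8.34 RPM at E13.5, against 3.13 and 0 RPM at E12.5, and Ybx2, which stores maternal mRNA, had 83.6 and 73.7 RPM at E13.5, against 48.3 and 23.7 RPM at E12.5. These 2 oocyte factors rose, and both were lost without E12.5 replicate 2; without E13.5 replicate 1, Ybx2 alone was called, and with a pseudocount of 0.1 only 1 of them was. Later oocyte genes were at or near 0: Nobox was at or under 0.348 RPM, and Zp1 and Zp2 were listed at 0 in the 4 libraries. In the list of NODAL and male germ cell genes, 2 of 15 rose and 1 fell, and 0 of the increases was called without E12.5 replicate 1, E12.5 replicate 2 or E13.5 replicate 1, with no filter, or after median centring or quantile normalization. The increases were Piwil4, already described, and Nxf2, an X-linked mRNA exporter with close copies, at 3.46 and 0.321 RPM at E13.5, against 0 and 0 RPM at E12.5. Tdgf1, the NODAL co-receptor, was listed at 0 in both E13.5 libraries and had 3.82 and 2.82 RPM in the E12.5 libraries. Nxf2 and Tdgf1 were under 5 RPM in all 4 female libraries and passed the filter through other embryo libraries. Nxf2 averaged 18.4 RPM in the E14.5 female libraries, and Tdgf1 averaged 19.8 RPM in the E12.5 male libraries. Nanos2 had 0 and 0.321 RPM at E13.5, against 0 and 0 RPM at E12.5, below the level of 3 reads throughout.

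Chromatin and imprinted genes were called at shares to be read beside the 5.86% of all genes. None of 17 Polycomb genes was called, with a median of -0.14. In the machinery of DNA methylation, 1 of 11 fell: Apobec1, a cytidine deaminase, had 1.73 and 0.962 RPM at E13.5, against 7.996 and 3.67 RPM at E12.5, lost without E12.5 replicate 1 or either E13.5 library, with no filter and with a pseudocount of 0.1. Among 19 imprinted genes 2 rose, and 1 with no filter or after median centring. Igf2, a paternally expressed growth factor, had 65.2 and 79.2 RPM at E13.5, against 33.4 and 31.9 RPM at E12.5, a call lost without E12.5 replicate 1, E12.5 replicate 2 or E13.5 replicate 2 and after median centring. Snrpn, also paternally expressed, had 5.04 and 2.76 RPM in the E13.5 libraries, against 0.00177 and 0.00809 RPM in the E12.5 libraries, which is under a single read, and the call was lost without E13.5 replicate 1. Snrpn averaged 0.0126 RPM or less at E11.5, in male cells at E12.5 and E13.5, and in female cells at E14.5 and E15.5. How reads were assigned to this gene was not tested.

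Among 26 genes of glycolysis and one-carbon metabolism, 19 lay below 0 with a median of -0.30. None was called, beside 5.86% of all genes tested, and median centring and quantile normalization each called 1 lower. Eno1, a glycolytic enolase, had 190.0 and 172 RPM at E13.5, against 340.0 and 318 RPM at E12.5, lower in each E13.5 library, and Ldha, which makes lactate, had 63.4 and 77.6 RPM at E13.5, against 49.7 and 42.1 RPM at E12.5, higher in each. Neither passed the fold threshold, at log2 changes of -0.86 and 0.61. None of 11 genes of apoptosis and the p53 family was called, beside the same 5.86% of all genes. Trp53 had 45.8 and 69.9 RPM at E13.5, against 155 and 127 RPM at E12.5, a log2 change of -1.29 with limma's adjusted p = 0.195. Among 14 stress and immediate early genes, Fos, an AP-1 subunit, had 26.0 and 31.1 RPM at E13.5, against 7.65 and 7.06 RPM at E12.5, and Ier3, an early-response gene, had 0.577 and 0.962 RPM at E13.5, against 3.82 and 7.06 RPM at E12.5. Fos rose, a call lost without E12.5 replicate 2 or E13.5 replicate 2, and Ier3 fell, a call lost without E12.5 replicate 2. Fos and Ier3 were the only 2 of the 14 called, beside 5.86% of all genes. The summed level of the 14 and their untested relatives was 505 and 522 RPM at E13.5, against 539 and 531 RPM at E12.5.

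Markers of other cells were low in the sorted populations. The sum over 18 ovarian somatic markers was 26.2 and 19.6 RPM at E13.5, against 13.6 and 32.2 RPM at E12.5, so the groups overlapped. Of the 18, 16 and 11 were above 0 in the E13.5 libraries, against 11 and 14 in the E12.5 libraries. Rspo1 was the highest at E13.5, at 6.63 and 4.17 RPM. In E12.5 replicate 1 the highest was Wnt4, at 1.77 RPM, and in E12.5 replicate 2 it was Amhr2, at 7.90 RPM. Foxl2, the defining granulosa factor, was at most 0.577 RPM, and Nr5a1 and Upk3b were listed at 0. Bmp2, a granulosa ligand and the 1 of 9 tested ovarian markers that rose, had 2.31 and 2.56 RPM at E13.5, against 0 and 0.282 RPM at E12.5, lost without E12.5 replicate 1 or E13.5 replicate 2. The 11 testicular somatic markers summed to 36.3 and 33.7 RPM at E13.5, against 30.0 and 29.6 RPM at E12.5, with Sox9 and Amh at 0; Insl3 made up most of each sum, at 24.8 and 27.6 RPM at E13.5, against 25.8 and 27.2 RPM at E12.5. The 19 blood, endothelial and mesenchymal markers summed to 136 and 145 RPM at E13.5, against 153 and 135 RPM at E12.5, and Ptprc, Cdh5 and Kdr were at 0. Pecam1, listed here as an endothelial marker, made up most of each of these sums, at 105 and 117 RPM at E13.5, against 137 and 118 RPM at E12.5. Tie1, like Cdh5 and Kdr a further endothelial marker of the list, was also at 0. Which cells carried Pecam1 was not tested. In that list 1 of 10 tested genes rose, and in the ovarian list 1 of 9, beside 4.73% of all genes. Bmp2, the 1 of 9, was under 5 RPM in all 4 female libraries. It passed the filter through other embryo libraries, and averaged 6.91 RPM in the E14.5 female libraries. The 1 of 10 was Hbb-b1, a haemoglobin gene with close copies. It had 7.79 and 7.21 RPM at E13.5, against 0.348 and 0 RPM at E12.5.

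Set against male germ cells over the same day, 235 genes differed in their change (1.87%), 155 toward the female step (1.23%) and 80 toward the male step (0.637%). The 66.0% of differences toward the female step became 55.3% after median centring and 51.3% after quantile normalization. The count of 235 was 139 and 122 without E13.5 female replicates 1 and 2, 108 without E12.5 female replicate 2, 117 and 136 without E13.5 male replicates 1 and 2, and 104 and 146 without E12.5 male replicates 1 and 2. Male germ cells alone had 307 genes higher at E13.5 (2.44%) and 238 lower (1.89%), together 545 (4.34%). Of the 48 meiotic genes, 9 differed toward the female step and 0 toward the male. Stra8 had 1.27 and 1.97 RPM in the E13.5 male libraries, against 5.95 and 0.687 RPM in the E12.5 male libraries, low in 3 of the 4 and highest in E12.5 male replicate 1. The female change exceeded the male change by 3.41 ± 0.62 (SE), adjusted p = 0.00432 on the log2 scale (limma, Benjamini-Hochberg). Meioc (Gm1564) had 3.17 and 1.64 RPM in the E13.5 male libraries, against 5.95 and 6.18 RPM in the E12.5 male libraries, and Dmrtc2 had 0 and 0.656 RPM in the E13.5 male libraries, against 3.35 and 2.06 RPM in the E12.5 male libraries. In both the male libraries were all under 10 RPM, and the differences were 4.02 and 4.39 (limma, adjusted p = 8.59e-05 and 8.59e-05), called whichever of the 8 libraries was left out, as was that of Stra8, which was lost with a pseudocount of 0.1 (limma, adjusted p = 0.0622).

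Other meiotic genes moved in both sexes. Sycp1 had 51.4 and 44.3 RPM in the E13.5 male libraries, against 23.4 and 18.5 RPM in the E12.5 male libraries, Sycp2 had 31.1 and 29.9 RPM in the E13.5 male libraries, against 8.56 and 12.4 RPM in the E12.5 male libraries and Rec8 had 14.9 and 11.2 RPM in the E13.5 male libraries, against 5.58 and 2.75 RPM in the E12.5 male libraries. The difference between the sexes was not called for these 3, at 1.03, 0.44 and 0.71, so a change confined to the ovary was not shown for them. Sycp3 had 44.7 and 47.6 RPM in the E13.5 male libraries, against 45.4 and 28.1 RPM in the E12.5 male libraries; its difference of 1.33 was called but lost under 11 of 14 alternatives, which include leaving out any library other than E12.5 male replicate 2. Taf7l had 13.96 and 9.52 RPM in the E13.5 male libraries, against 17.5 and 2.40 RPM in the E12.5 male libraries, with E12.5 male replicate 1 above both E13.5 male libraries, and a difference of 3.45 that was lost with no filter and with a pseudocount of 0.1. Gata2 had 2.22 and 1.97 RPM in the E13.5 male libraries, against 7.44 and 13.4 RPM in the E12.5 male libraries, and Msx2 had 0 and 0.328 RPM in the E13.5 male libraries, against 6.33 and 6.52 RPM in the E12.5 male libraries. Both BMP targets were lower in male germ cells at E13.5, beside female log2 changes of 0.57 and -0.05 that were not called, and differed by 2.40 and 2.64; that of Gata2 was called whichever library was left out and that of Msx2 was lost without E13.5 female replicate 2.

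**Figure D4:**
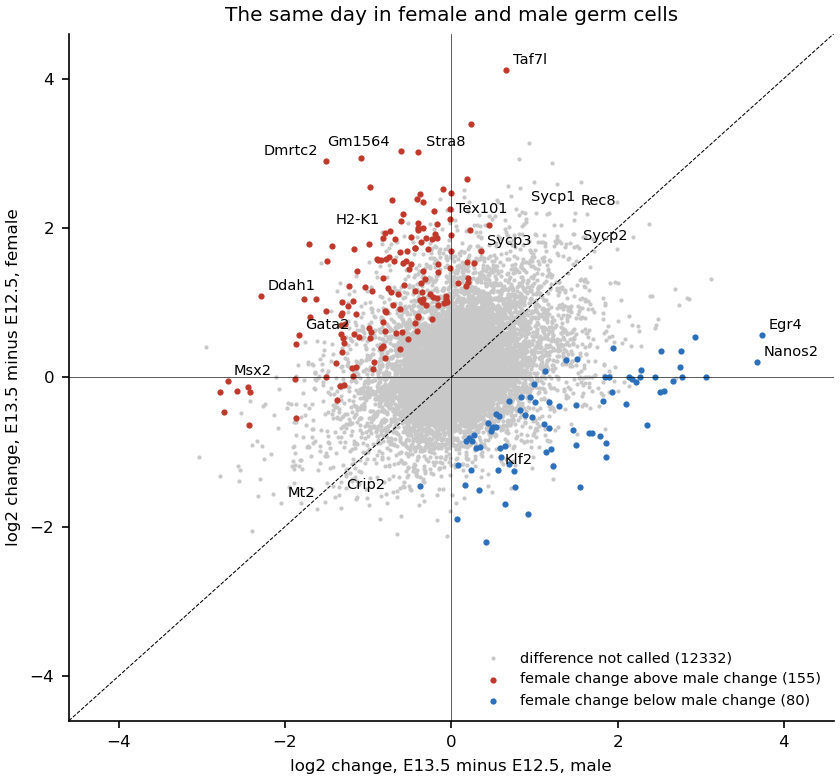
log2 change (E13.5 minus E12.5) in female germ cells (y axis) against that in male germ cells (x axis) for 12567 genes, with a dashed line where the 2 are equal. Red points are the 155 genes whose female change was above the male change, blue points the 80 with the opposite difference, and grey points the rest. Meioc (Gm1564), Dmrtc2 and Stra8 lie high and left of the vertical axis, while Mt2 and Crip2 lie near the dashed line at lower left.

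On the male side of the difference stood Nanos2, the RNA-binding protein of the male fate, with 30.8 and 30.5 RPM in the E13.5 male libraries, against 2.60 and 0.687 RPM in the E12.5 male libraries. Egr4, an early growth response factor, had 41.6 and 49.9 RPM in the E13.5 male libraries, against 4.09 and 1.37 RPM in the E12.5 male libraries, and Pdzk1, a scaffold of membrane transporters, had 50.8 and 56.1 RPM in the E13.5 male libraries, against 7.81 and 9.27 RPM in the E12.5 male libraries. These 3 rose in male germ cells, against at most 1.73 RPM of Egr4 and 11.01 RPM of Pdzk1 in the 4 female libraries, with differences of -3.48, -3.18 and -2.71. Those of Nanos2 and Pdzk1 were called whichever of the 8 libraries was left out, while that of Nanos2 was lost with a pseudocount of 0.1 (limma, adjusted p = 0.152), and that of Egr4 was lost without E13.5 female replicate 2, E12.5 female replicate 1, either E13.5 male library or E12.5 male replicate 2, with no filter and with a pseudocount of 0.1. Mt2, in turn, fell in male germ cells too, at 14.6 and 9.52 RPM in the E13.5 male libraries, against 48.7 and 54.9 RPM in the E12.5 male libraries, so its decrease was shared, and the difference of 0.36 was not called. Of the other large decreases, Lgals9, Fermt3, Hmgn5, Crip2, Capg, Hey1 and Zfp296 were also called lower in male cells. Their male log2 changes ran from -2.33 to -1.11, and no difference between the sexes was called for them. Ctsa, Pik3cd, Got1, Dpysl2, Mt1 and Ptpre were not called in male cells, and the difference was called for Ctsa and Pik3cd. Ddah1, an enzyme that breaks down methylarginines, had 25.4 and 27.6 RPM at E13.5, against 11.47 and 12.4 RPM at E12.5 in female cells, and 2.22 and 0.328 RPM in the E13.5 male libraries, against 11.9 and 6.87 RPM in the E12.5 male libraries. It moved in opposite directions in the sexes, with a difference of 3.37 called whichever of the 8 libraries was left out; its female increase alone was lost without any 1 of the 4 female libraries.

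The step was also placed among the neighbouring stages. E11.5 libraries carry no sex label, and the E14.5 and E15.5 female libraries, labelled fetal oocytes, came from embryos of the genotype Ddx4-RFPTg/0 sorted by red fluorescence, so that stage and reporter cannot be told apart after E13.5. Sycp3 averaged 11.1 ± 4.35, 45.4 ± 3.70, 149 ± 21.5, 1999 ± 188 and 2521 ± 12.6 RPM at the 5 stages, from E11.5 to E15.5 in order (SD, n = 2 each). Taf7l averaged 0.817 ± 0.701, 2.63 ± 0.275, 61.8 ± 0.554, 1170.5 ± 109 and 1174 ± 12.8 RPM. Both stood far higher in the later libraries than at E13.5. Rec8 was instead highest at E13.5, with means of 10.02 ± 4.89, 53.7 ± 4.68, 249.96 ± 6.07, 194 ± 4.70 and 52.2 ± 29.8 RPM. The falling genes ran the other way. Crip2 averaged 243 ± 2.22, 82.4 ± 18.3, 27.0 ± 5.92, 8.38 ± 0.228 and 5.53 ± 0.347 RPM. Pou5f1, not called over this step, averaged 457 ± 24.97, 349 ± 16.2, 247 ± 11.8, 25.1 ± 1.59 and 9.73 ± 0.417 RPM. These stage means are descriptions and the other steps were not tested here.

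**Figure D5:**
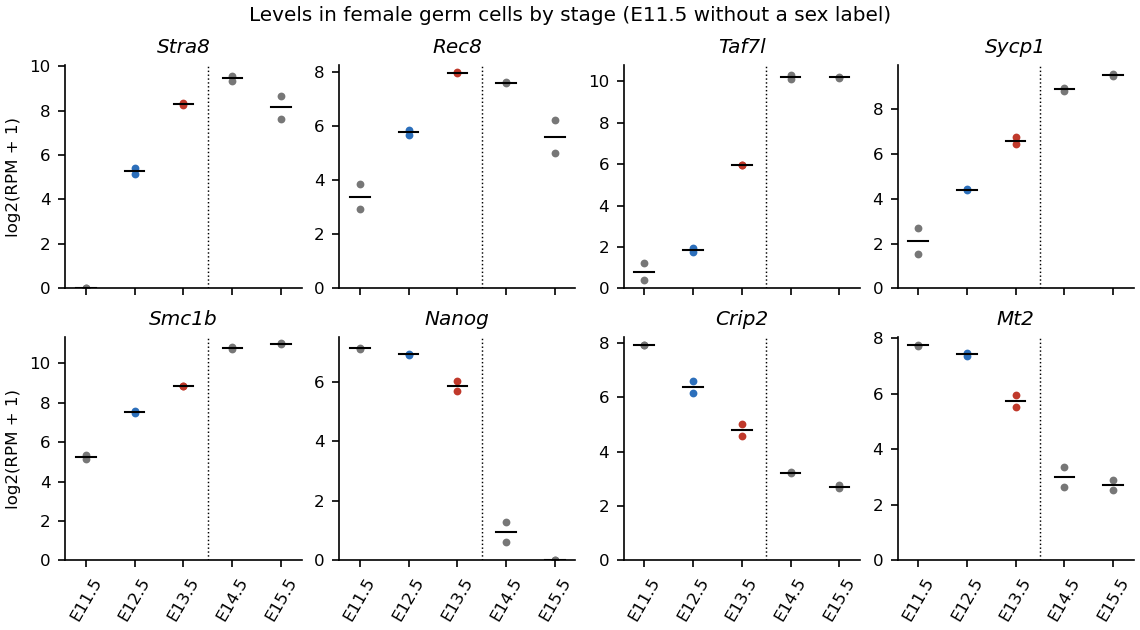
log2(RPM + 1) (y axis) of 8 genes at 5 stages from E11.5 to E15.5 (x axis), with each point a library and each bar the mean of 2; E12.5 is blue, E13.5 is red and the other stages are grey. The dotted line marks the change of sorting reporter between E13.5 and E14.5. Rec8 is highest at E13.5, at a mean of 249.96 ± 6.07 RPM (SD), Taf7l and Sycp1 are higher after it, and Nanog, Crip2 and Mt2 are lower at each later stage.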

How the data were processed

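Germ cells sorted from mouse embryos were profiled by sequencing of 3′ cDNA ends on a NextSeq500, per the labels' protocols. The values analysed are a signal in RPM per gene (reads scaled to the same total in each library), normalized by the authors before they deposited them. The submitters' processing notes name Bowtie 1.0.1, TopHat 1.4.1, Cufflinks 2.2.0, cutadapt 1.11 and the build mm10; their settings are not given in the sources used here. Values under 0.001 RPM (2777 of them) were set to 0. Low values were whole multiples of 1 read, within 0.1 read, for 90.9% to 92.3% of genes in the 4 libraries, which was not taken as nearly all, so no count test was run. The interval behind a value covers counting error only, and 3 reads of a library are its stated floor.

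Genes with at least 5 RPM in at least 2 of 22 embryo libraries were kept (12567 of 26218) and fitted with limma 3.58.1 in R 4.3.3 on log2(RPM + 1), with 1 mean for each of 11 groups, an intensity trend and Benjamini-Hochberg adjustment. The contrast was E13.5 minus E12.5 female, and the sexes were compared by that contrast minus the male one. The fit was tested on simulated data. Alternatives were a pseudocount of 0.1, no filter, a filter of 20 RPM, median centring, quantile normalization, the compared groups alone, a replicate block and leaving out each library. Named genes were, in each direction, 15 called genes ranked by log2 change that averaged 20 RPM or more at the higher stage, did not overlap and had no predicted name, up to 6 called members of each list, a few fixed germ cell genes and the 5 largest differences between the sexes each way; members named beyond this complete a count and were chosen after their values were seen. The genes and the 25 lists (410 genes, 405 matched) were chosen with earlier results of these data known. Positions and promoters come from RefSeq tables of GRCm38.p6. The table's columns all matched labelled libraries. The sex labels were not checked against the data, since Xist was at most 0.348 RPM in the 4 libraries. A few genes named by the rule are not reported here.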

Additional observations from a re-analysis of the deposited data

Results flagged for a closer look

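Genes whose change over this day differed between female and male germ cells numbered 235 (limma, Benjamini-Hochberg). Those among the named or listed genes are given here as the female log2 change minus the male log2 change, with no explanation, and the cause of each was not tested. Among meiotic genes the differences were 4.39 for Dmrtc2, 4.02 for Meioc (Gm1564), 3.45 for Taf7l, 3.41 for Stra8, 1.33 for Sycp3, 1.26 for Tex12, 1.13 for Smc1b, 1.08 for Syce1, 1.04 for Stag3 and 1.02 for Brca2. Among germ cell, signalling and cell cycle genes they were 2.13 for Tex101, 1.75 for Cited1, 1.58 for BC022960, 2.40 for Gata2, 2.64 for Msx2, 1.19 for Cdkn2d, -1.81 for Klf2, -3.48 for Nanos2, -3.18 for Egr4, -1.61 for Pik3cd and -2.75 for Ier3. Among genes of antigen presentation, imprinting, metabolism and apoptosis they were 2.70 for H2-K1, 2.17 for B2m, 1.76 for Igf2, 1.57 for Ldha, 3.37 for Ddah1, -2.71 for Pdzk1, -1.84 for Ctsa and -2.44 for Pmaip1. Among the rest, of which Insl3 and Cyp17a1 are known from Leydig cells, they were 1.86 for Insl3, -2.27 for Cyp17a1, -2.75 for Clu and -2.77 for Krt17.

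Pmaip1, which encodes a pro-apoptotic BH3 protein, had 2.02 and 0.321 RPM at E13.5, against 2.43 and 2.26 RPM at E12.5 in female cells, and 91.7 and 99.1 RPM in the E13.5 male libraries, against 26.0 and 31.6 RPM in the E12.5 male libraries; it rose in male cells, and the difference was lost without 7 of the 8 libraries left out singly. Insl3, a hormone gene of fetal Leydig cells, had 24.8 and 27.6 RPM at E13.5, against 25.8 and 27.2 RPM at E12.5 in female cells, and 5.08 and 4.92 RPM in the E13.5 male libraries, against 20.47 and 21.6 RPM in the E12.5 male libraries, so the female stages overlapped and it fell in male cells. Ldha had 12.7 and 11.2 RPM in the E13.5 male libraries, against 27.5 and 21.3 RPM in the E12.5 male libraries, while in female cells both E13.5 libraries lay above both E12.5 libraries. Krt17, a keratin, was listed at 0 in the 4 female libraries and had 23.2 and 19.7 RPM in the E13.5 male libraries, against 1.86 and 2.75 RPM in the E12.5 male libraries; its difference was lost with a pseudocount of 0.1 (limma, adjusted p = 0.235). Of the 36 called differences among named and listed genes, which include 2 in lists chosen after values were seen, 13 stayed called without any 1 of the 8 libraries and 9 under every alternative in which they were tested, the fit of the compared groups alone aside.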

How the results depend on the processing

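None of the 71 called named genes changed direction in the female step under any alternative run, and the other called genes were not checked for this. Leaving out 1 library gave 319 to 641 called genes for the female step, beside 737, and 104 to 207 for the difference between the sexes, beside 235. The fit of the compared groups alone called 0 genes for the step and 13 for the difference (2225 at an unadjusted p below 0.05, 4 residual degrees of freedom). A pseudocount of 0.1 gave 515 and 145, and no filter 517 and 120; each count otherwise stayed within 1.5 times. Of 71 called named genes, 34 stayed called under every alternative that tested them except the 4-library fit (5 of the 71 failed the 20 RPM filter); median centring lost 6, quantile normalization 9, no filter 19 and the pseudocount of 0.1 20. The labels do not say whether libraries of the same number belong together. Across genes, same-numbered deviations of E13.5 and E12.5 female libraries correlated at 0.01, which cannot show how the libraries were prepared. The replicate block gave 724 and 225 calls and lost 1 of the 71 (Sox15). Depth limits genes near 3 reads (0.847 to 1.04 RPM), such as Prdm9, Rnf212, Majin and Terb1, and 2 libraries a group limit every error.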

Other observations

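Further gene groups were examined over this day. Their lists were chosen after the values were seen, and their counts are descriptions. Of all genes tested, 4.73% were called higher and 1.14% lower, with a median log2 change of 0.09. Of 16 feedback and target genes of FGF-ERK signalling, 5 fell and 1 rose, with a median log2 change of -0.89. Dusp6, a phosphatase that switches off ERK, had 9.52 and 12.504 RPM at E13.5, against 27.5 and 32.2 RPM at E12.5, and Dusp4, a related phosphatase, had 44.4 and 56.1 RPM at E13.5, against 124 and 108 RPM at E12.5. Spred2, an inhibitor of the pathway, had 12.1 and 12.504 RPM at E13.5, against 24.0 and 34.7 RPM at E12.5, and Etv4, an ETS factor downstream of it, had 16.1 and 14.4 RPM at E13.5, against 38.9 and 31.6 RPM at E12.5. Each was lower in both E13.5 libraries, and the other calls were Ier3 (lower) and Fos (higher), given above. The count of 5 was 4 without E12.5 replicate 1, 2 without E12.5 replicate 2, and 3 without either E13.5 library; of the 4 genes, Dusp4 stayed called throughout. Etv5 and the Sprouty genes Spry1 and Spry2 lay at -0.98, -0.89 and -0.89 without being called.

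WNT targets rose in 3 of 12 members, with a median of 0.40. Sp5 had 41.5 and 53.5 RPM at E13.5, against 16.3 and 13.8 RPM at E12.5, Nkd1, a WNT antagonist, had 21.05 and 29.8 RPM at E13.5, against 8.34 and 6.78 RPM at E12.5, and Ccnd1 was the third. The stages did not overlap, but without E12.5 replicate 2 or E13.5 replicate 2 only 1 of the 3 was called, and the common targets Axin2 and Lef1 lay at 0.24 and -0.39. The 15 Hedgehog and Notch genes had a median of 0.04, with 9 above 0 and 6 below. Among them Smo, the signal transducer of Hedgehog, had 23.4 and 29.5 RPM at E13.5, against 6.26 and 10.2 RPM at E12.5. Jag2, a Notch ligand, had 53.6 and 54.8 RPM at E13.5, against 11.8 and 20.9 RPM at E12.5. Both rose beside the fall of Hey1, and all 3 calls held whichever library was left out. Among 22 genes of ribosome biogenesis with a median of -0.33, Rrp9 had 25.1 and 29.2 RPM at E13.5, against 69.5 and 69.2 RPM at E12.5, and Exosc4, a subunit of the RNA exosome, had 13.6 and 15.6 RPM at E13.5, against 34.4 and 36.1 RPM at E12.5. These 2 fell and stayed called whichever library was left out. In a list of 8 metallothioneins and metal transporters, the zinc transporters Slc39a14 and Slc30a2 fell together with Mt1 and Mt2, at log2 changes of -1.18 and -1.15; the count of 4 was 2 without E12.5 replicate 2 or E13.5 replicate 2.

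X-linked genes stood above the autosomes in this step. Of 12184 tested genes with a RefSeq position, 534 X-linked genes had a median log2 change of 0.28, and 60 of them rose (11.2%) while 3 fell. The 11650 autosomal genes had a median of 0.08, and 4.50% of them rose; the medians of the 19 autosomes ran from 0.03 to 0.13. In male germ cells the medians were 0.03 for the X and 0.04 for the autosomes. Taken library by library, the X median exceeded the autosomal median by 0.13 to 0.22 in the 4 pairings of female E13.5 with E12.5 libraries, and by -0.03 to 0.03 in the 4 male pairings. The excess was 0.15 to 0.24 under the other alternatives and 0.01 with no filter on low genes. Genes are not independent replicates and no test was made. Xist, the RNA that silences an X chromosome, was at 0 and 0.321 RPM in the E13.5 libraries, against 0.348 and 0 RPM in the E12.5 libraries.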
